A study of Homo sapiens with 24 samples.

Results

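The 6 genes of the C/EBP family, CEBPA, CEBPB, CEBPD, CEBPE, CEBPG, and DDIT3, were examined as sites of S100A8 and S100A9 chromatin binding, out of 20098 protein-coding genes. They were taken by name. In each ChIP-seq library, a peak was assigned to a gene if its summit lay in the gene body or within 50 kb of it and its q value against the chromatin input was 1e-07 or lower. A promoter was counted as called if such a summit lay between 1500 bp before and 250 bp after the transcription start site (TSS) of any protein-coding transcript. Peaks of all libraries that overlapped by at least 1 bp were merged, and 64 of 70990 merged regions belong to the 6 genes. The position given for a region is the summit of 1 library. It is the called peak with the highest percentile of fold enrichment within its own list, and other summits can lie elsewhere in the region. CEBPA and CEBPG are neighbors on chromosome 19, and their windows share 4 of these regions, which are therefore not separate observations for the pair.

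The cells are MCF-10A–ER-Src, a derivative of a nontransformed human breast epithelial line that carries v-Src fused to the ligand-binding domain of the estrogen receptor. All of them were kept for 24 hours either in 1 μM 4-hydroxytamoxifen (TAM), which switches on v-Src and starts transformation, or in the ethanol vehicle (EtOH). S100A8 or S100A9 carried a C-terminal Flag tag, was stably expressed from a retroviral vector on top of the endogenous proteins, and was precipitated with an anti-Flag antibody. EtOH was represented by 2 libraries for S100A8 and 3 for S100A9, and TAM by 3 for either protein, all labelled as biological replicates. Anti-Flag ChIP in untagged cells was not analysed here.

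C/EBP proteins are basic leucine zipper transcription factors. They pair with each other or with related zipper proteins, and the paired basic regions bind a palindromic element with TTGC or TTAC in each arm. C/EBPα and C/EBPε are known for differentiation of myeloid cells, C/EBPβ and C/EBPδ for the inflammatory and acute-phase response downstream of interleukin-6, and C/EBPγ and the DDIT3 product, also called CHOP, act mainly as partners that alter the binding of the others. In the breast epithelium, C/EBPβ is needed for growth and differentiation of the gland and C/EBPδ is a known target of STAT3. C/EBP factors also control the genes of S100A8 and S100A9 themselves in myeloid cells.

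The sequences under 9 summits are shown first, since values below refer to them. They are the most often called region upstream of the start site in the promoters of CEBPA, CEBPB, CEBPG, and DDIT3, and regions outside the promoters that were called in at least 5 TAM libraries. The other 5 promoter regions, among them both of CEBPD, and the region 23824 bp downstream of the CEBPE start site, which lies in an untranslated region, are not printed. CEBPB, 30893 bp downstream, was chosen after its values were seen, as the only region of the family with more than 1 match to the C/EBP letters searched. They are the plus strand of hg19, 100 bases to either side of the summit, and were cut at CEBPA and at 25560 bp upstream of DDIT3 where the untranslated part of a transcript begins. Capitals mark matches on either strand to TTGCNNAA or TTACNNAA (C/EBP), TGATGNAA (a C/EBP-ATF composite), TGACTCA (AP-1), TGACGTCA (CREB), CGGAAG (ETS), CCCCGCCC (KLF/SP), or the CTCF or STAT motif.
CEBPB, 24627 bp upstream (chr20:48782640-48782840): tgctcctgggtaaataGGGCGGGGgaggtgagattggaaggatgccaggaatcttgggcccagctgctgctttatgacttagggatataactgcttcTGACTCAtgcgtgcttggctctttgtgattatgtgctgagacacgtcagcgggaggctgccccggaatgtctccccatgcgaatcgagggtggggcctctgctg
CEBPB, 46276 bp upstream (chr20:48760991-48761191): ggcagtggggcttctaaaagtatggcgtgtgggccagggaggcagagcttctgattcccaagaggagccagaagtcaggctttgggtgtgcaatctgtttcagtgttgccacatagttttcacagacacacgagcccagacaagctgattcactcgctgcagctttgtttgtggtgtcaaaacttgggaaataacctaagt
CEBPB promoter, 376 bp upstream (chr20:48806891-48807091): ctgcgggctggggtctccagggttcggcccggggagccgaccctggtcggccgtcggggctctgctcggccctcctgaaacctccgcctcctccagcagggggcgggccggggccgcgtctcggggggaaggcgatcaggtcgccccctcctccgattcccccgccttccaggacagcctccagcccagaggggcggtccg
CEBPB, 30893 bp downstream of the start site (chr20:48838160-48838360): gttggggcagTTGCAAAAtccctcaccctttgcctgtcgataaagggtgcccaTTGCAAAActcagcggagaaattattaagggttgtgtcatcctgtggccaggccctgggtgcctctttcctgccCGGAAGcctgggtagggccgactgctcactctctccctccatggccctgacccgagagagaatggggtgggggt
CEBPA promoter, 54 bp upstream (chr19:33793441-33793594): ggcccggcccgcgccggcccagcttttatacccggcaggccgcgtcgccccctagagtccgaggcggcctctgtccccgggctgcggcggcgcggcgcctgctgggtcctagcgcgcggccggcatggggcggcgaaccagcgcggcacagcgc
CEBPG promoter, 174 bp upstream (chr19:33864341-33864541): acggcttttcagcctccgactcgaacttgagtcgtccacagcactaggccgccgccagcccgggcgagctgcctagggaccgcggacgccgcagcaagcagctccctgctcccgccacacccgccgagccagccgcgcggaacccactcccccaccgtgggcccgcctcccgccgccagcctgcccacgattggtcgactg
CEBPE, 1746 bp upstream (chr14:23590110-23590310): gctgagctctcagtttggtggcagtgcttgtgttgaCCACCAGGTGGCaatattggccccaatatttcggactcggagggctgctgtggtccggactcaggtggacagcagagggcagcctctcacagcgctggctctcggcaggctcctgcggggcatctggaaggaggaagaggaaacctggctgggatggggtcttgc
DDIT3 promoter, 706 bp upstream (chr12:57916126-57916326): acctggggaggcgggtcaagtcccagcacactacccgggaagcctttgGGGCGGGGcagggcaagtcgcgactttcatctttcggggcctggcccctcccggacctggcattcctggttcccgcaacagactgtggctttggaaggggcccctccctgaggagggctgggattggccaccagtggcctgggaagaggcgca
DDIT3, 25560 bp upstream (chr12:57941008-57941180): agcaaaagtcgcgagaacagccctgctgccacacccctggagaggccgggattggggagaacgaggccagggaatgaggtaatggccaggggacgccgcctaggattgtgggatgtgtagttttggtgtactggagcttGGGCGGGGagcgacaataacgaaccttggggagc

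The window 24627 bp upstream of CEBPB, which was called in every TAM library, holds an AP-1 element, TGACTCA, that starts 3 bp from the summit, and a KLF/SP element. The sequence 1746 bp upstream of CEBPE holds a match to the CTCF motif, and those at 706 bp and 25560 bp upstream of DDIT3 each hold a KLF/SP element. The sequence 30893 bp downstream of the CEBPB start site holds TTGCAAAA in 2 places and an ETS element. Both TTGCAAAA match the letters searched, which fix TTGC or TTAC in 1 arm and only AA in the other. Neither has TTGC or TTAC in both arms. The windows shown from the promoters of CEBPA, CEBPB, and CEBPG and from 46276 bp upstream of CEBPB hold none of the letters searched. Of the promoter windows not printed, that 6 bp upstream of CEBPD holds 2 KLF/SP elements, that 872 bp upstream of CEBPD 1 ETS element, and that 1630 bp downstream of the DDIT3 start site 1 match to the CTCF motif, and the other 2 hold none. The CEBPE window 23824 bp downstream of the start site holds 1 match to the C/EBP letters and 1 ETS element. These matches are letters in a window and not evidence of a bound factor. Each window is centered on the summit of a single library, and summits of other libraries can lie outside it.

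Over all 64 regions of the family, a match to the C/EBP letters was found within 100 bp of the summit in 9 (14.1%), compared with 17.7% of the 70990 regions of all libraries. The AP-1 element was found in 16 (25.0%), compared with 24.4% of all regions, and the C/EBP-ATF composite in 3 (4.69%), compared with 4.42%. KLF/SP, ETS, and CTCF matches were found in 5 regions each (7.81%), where the shares of all regions were 7.24%, 9.16%, and 6.25%. CREB and STAT elements were found in 0 of the 64, compared with 0.723% and 3.15% of all regions. The motif shares of the family thus lay close to those of all regions. The regions had a median G+C content of 57.2%, compared with 53.2% for all.

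Values for whole libraries bear on each count below. The EtOH lists held 1853 to 4609 peaks at this threshold and the TAM lists 21518 to 40735, so that each TAM list was longer than each EtOH list. The numbers of reads behind the lists are unknown. A longer list because of more binding and one because of deeper sequencing cannot be told apart. A peak in the coding exons of S100A9, which a retroviral copy of the coding sequence would also give, was found with S100A9-Flag in 6 of 6 libraries but with S100A8-Flag in just 1 of 5. The coding exons of S100A8 held no peak in any of the 11.

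All 6 genes had more peaks in TAM than in EtOH. Over the 6 TAM libraries, CEBPB had 6.0 ± 3.41 peaks (SD, n = 6) and CEBPE 5.33 ± 1.03, and the other members had between 3.17 and 3.67, compared with 0.200 to 1.00 in the 5 EtOH libraries. The difference was 4.92 peaks for CEBPB, 4.50 for CEBPE, 3.50 for DDIT3, 3.08 for CEBPG, 3.00 for CEBPD, and 2.83 for CEBPA, as the mean of the differences within each protein. It passed an exact permutation test of the libraries for 6 of 6 genes after Benjamini-Hochberg adjustment over 18126 genes with a peak in at least 2 libraries, with adjusted p values of 0.0219 or 0.0352. The same test called 67.6% of all genes tested, all of them higher in TAM, and the median difference over all genes was 2.42 peaks. A call for 6 of 6 therefore stands against a background in which most genes are called. The calls did not all hold with the same number of top peaks (1853) from each list, where 0 of the 4 members that could be tested were called, at q ≤ 1e-10, where only CEBPD was called, or with flanks of 10 kb, where CEBPD and DDIT3 were. Those of CEBPB and CEBPG were lost when any of 9 of the 11 libraries was left out, with adjusted p values of 0.0522 to 0.105 in the exact permutation test. With a library left out, fewer arrangements remain and the smallest possible p is larger, so a lost call does not by itself show dependence on that library.

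**Figure D1:**
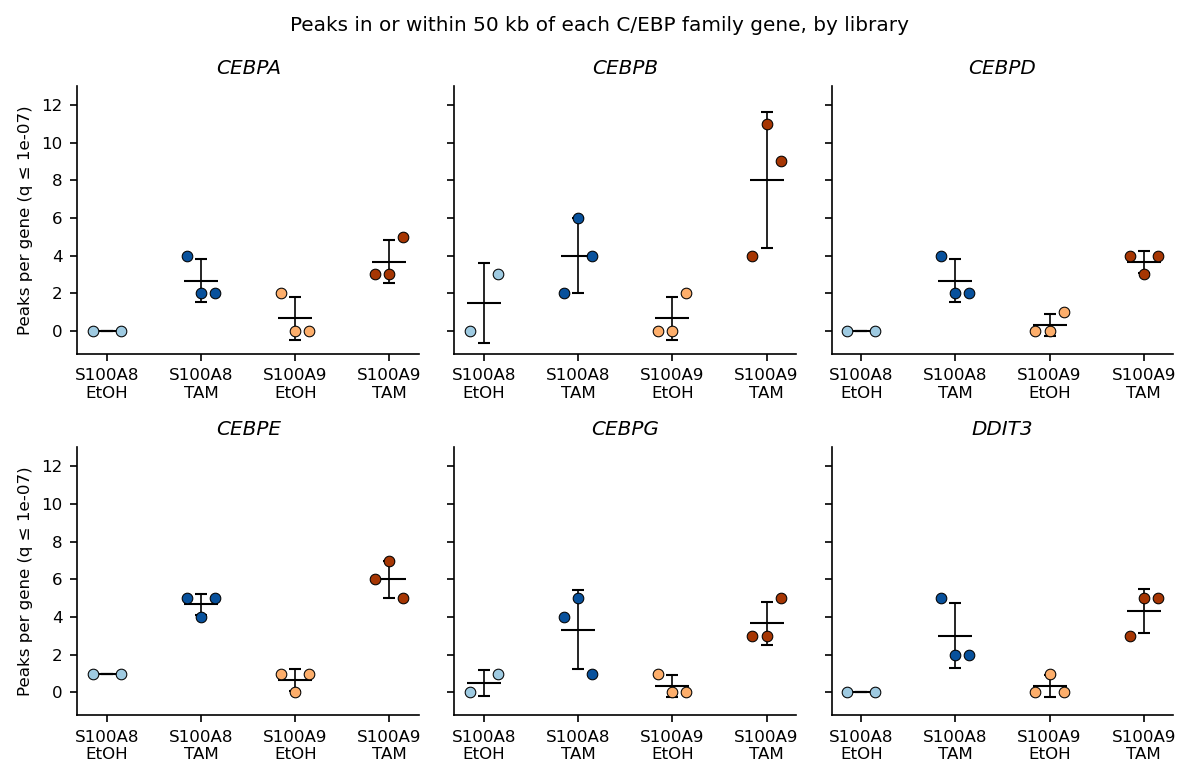
Number of peaks (q ≤ 1e-07) in or within 50 kb of each of the 6 genes, for each of the 11 libraries (points) with the mean and SD of each group (bars); the axis is linear. CEBPB in S100A9 TAM reaches 11 peaks in 1 library and has the widest spread, and the EtOH libraries lie at 0 to 3 peaks for every gene.

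CEBPB, the inflammatory regulator of the family, had 0 and 3 peaks in S100A8 EtOH, 2, 6, and 4 in S100A8 TAM, 0, 0, and 2 in S100A9 EtOH, and 4, 11, and 9 in S100A9 TAM. The lowest TAM library lay below the highest EtOH library, so that the treatments overlapped. CEBPE, the granulocyte member, had 1 and 1 peaks in S100A8 EtOH, 5, 4, and 5 in S100A8 TAM, 1, 0, and 1 in S100A9 EtOH, and 6, 7, and 5 in S100A9 TAM. Here every TAM library had at least 4 peaks and no EtOH library more than 1.

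DDIT3, the stress-induced member that blocks its partners from the usual C/EBP element, had 0 and 0 peaks in S100A8 EtOH, 5, 2, and 2 in S100A8 TAM, 0, 1, and 0 in S100A9 EtOH, and 3, 5, and 5 in S100A9 TAM. CEBPD, the acute-phase member, had 0 and 0, then 4, 2, and 2, then 0, 0, and 1, and then 4, 3, and 4 peaks in the same 4 groups. For DDIT3 and CEBPD, the TAM and EtOH libraries did not overlap. Groups without overlap were thus found for 3 of the 6 genes, CEBPD, CEBPE, and DDIT3, compared with 40.2% of all genes tested.

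CEBPA, which drives growth arrest and differentiation, had 0 and 0 peaks in S100A8 EtOH, 4, 2, and 2 in S100A8 TAM, 2, 0, and 0 in S100A9 EtOH, and 3, 3, and 5 in S100A9 TAM. CEBPG, a member without a transactivation domain of its own, had 0 and 1, then 4, 5, and 1, then 1, 0, and 0, and then 3, 3, and 5 peaks. In both genes, 1 or more TAM libraries had no more peaks than the highest EtOH library. The third S100A8 TAM library had 1 peak at CEBPG, the lowest TAM value of the family.

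The windows of the 6 genes are of similar length, from 101 to 109 kb, so that their counts can be ordered. By the TAM mean, the order was CEBPB, CEBPE, DDIT3, CEBPG, and then CEBPA and CEBPD with 3.17 each. The ranges of neighboring genes in this order overlapped. Among all 20098 genes, the TAM mean of CEBPB lay at the 87.0th percentile and that of CEBPE at the 82.7th, DDIT3 at the 65.8th, CEBPG at the 63.7th, and CEBPA and CEBPD at the 59.0th. The median of all genes was 2.67 peaks in TAM and 0.400 in EtOH. The windows of other genes include their gene bodies and so differ in length, and no count was adjusted for this. The windows of DDIT3, CEBPE, CEBPB, and CEBPD also hold the TSSs of 6, 4, 2, and 2 other coding genes. The nearest coding TSS was that of a family member for 40 of the 64 regions. It was so for 3 of the 13 regions at CEBPE and for 0 of the 8 at DDIT3.

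As a share of each library's list, the difference between treatments passed the test for no member. CEBPD came to 1.15 peaks per 10000 in TAM and 0.363 in EtOH, a difference of 0.79 with p = 0.0800 in the exact permutation test (adjusted p = 0.301). The differences of the other 5 genes ranged from −0.12 per 10000 at CEBPB to 0.43 at DDIT3, with adjusted p values from 0.876 to 1.00 in the exact permutation test. Among all genes, 0% were called after adjustment and 22.7% had an unadjusted p of 0.05 or lower, compared with 0 of the 6 members. The shares in EtOH rest on 0 to 3 peaks per gene and library and are coarse.

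**Figure D2:**
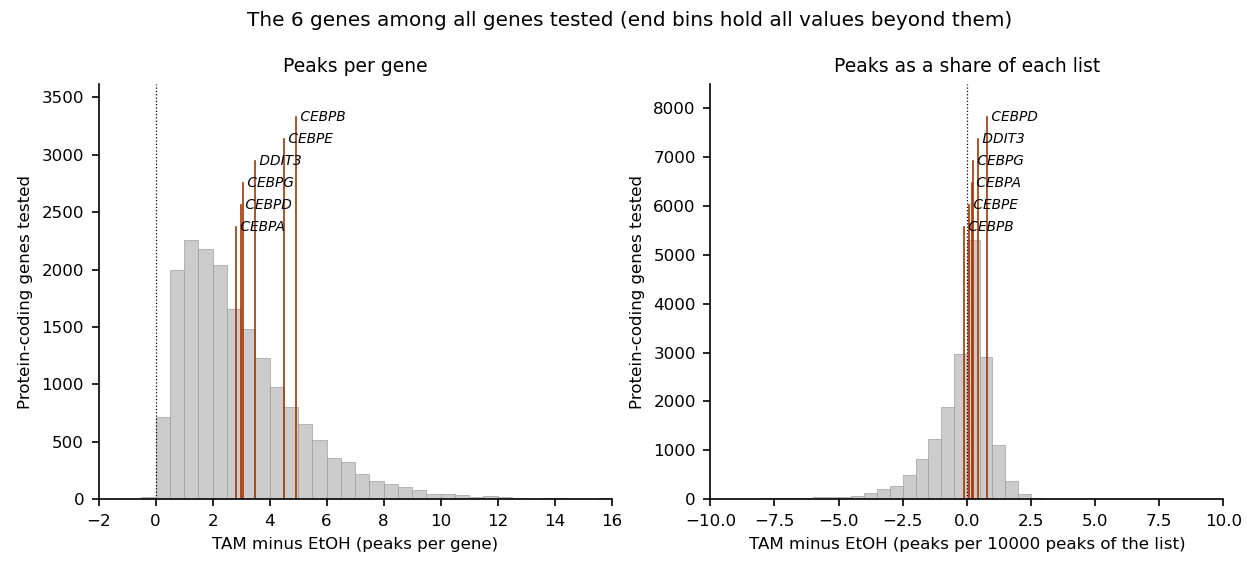
Difference between TAM and EtOH over all 18126 genes tested (gray bars, number of genes per bin) with the 6 members as lines; the left panel counts peaks per gene and the right panel peaks per 10000 peaks of each list. All 6 members lie to the right of the median of 2.42 peaks on the left, whereas on the right they lie close to 0, from −0.12 to 0.79.

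At the promoters, a peak was called in TAM at CEBPA, CEBPB, CEBPD, CEBPG, and DDIT3 and at CEBPE in no library. CEBPB and CEBPD promoters were each called in 5 of 6 TAM libraries, but also in 2 and 1 of the 5 EtOH libraries. The promoter of DDIT3 was called in 5 of 6 TAM libraries and in 0 of 5 EtOH libraries, CEBPG in 4 and 0, and CEBPA in 4 and 1. For DDIT3, the exact permutation test gave p = 0.0300, with an adjusted p of 0.191 over the 10647 promoters tested. For the other 4, the unadjusted p was 0.120 or higher by the same exact permutation test. After adjustment 0% of all promoters were called, and 20.9% had an unadjusted p of 0.05 or lower, compared with 1 of the 5 members tested. The TAM minus EtOH difference therefore passed the test at no promoter of the family.

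The CEBPD promoter held 2 separate regions. The region 6 bp upstream of the start site had peaks of 8.91-fold and 8.71-fold over input in S100A8 TAM 1 and 2 and 8.57-fold, 8.92-fold, and 12.5-fold in S100A9 TAM 1 to 3. The region 872 bp upstream had 10.2-fold in S100A8 TAM 1, 12.6-fold, 9.08-fold, and 10.4-fold in S100A9 TAM, and 9.42-fold in S100A9 EtOH 3. The third S100A8 TAM library had neither. Another region, 938 bp into the gene in an untranslated part of its transcript, was called in the 3 S100A9 TAM libraries alone, at 6.0-fold to 7.69-fold, and 2 S100A9 EtOH libraries held weaker peaks there. At 6636 bp downstream of the start site, in an intron of the neighbor SPIDR, 3 TAM libraries were called with 8.07-fold to 9.13-fold. A peak 1633 bp downstream of the start site was called only in S100A8 TAM 3, at 8.27-fold.

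The CEBPB promoter was the only one with EtOH calls in both proteins. Around 69 bp downstream of the start site, in the 5′ untranslated region, the called peaks were 7.99-fold in S100A8 EtOH 2, 9.85-fold in S100A8 TAM 2, 7.73-fold in S100A9 EtOH 3, and 5.52-fold and 7.41-fold in S100A9 TAM 2 and 3. The other 6 libraries held a weaker peak there (q between 0.05 and 1e-07), so that all 11 libraries listed some peak at this start site. The region 376 bp upstream was called only in S100A8 TAM 1 and 3, at 7.41-fold and 9.09-fold.

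The CEBPA promoter peak 54 bp upstream of the start site reached 18.4-fold in S100A9 TAM 3, the 99.4th percentile of that list, but only 7.69-fold in S100A9 TAM 2, 7.04-fold in S100A8 TAM 3, and 8.35-fold in S100A9 EtOH 1. Its high value thus rests on 1 library. The region 671 bp upstream, in an exon of the divergent noncoding CEBPA-DT, was called in S100A8 TAM 1 and S100A9 TAM 3 at 7.66-fold and 9.40-fold. At CEBPG, the region 174 bp upstream of the start site was called in S100A8 TAM 2 and 3 at 7.55-fold and 7.14-fold and in S100A9 TAM 1 and 3 at 7.20-fold and 9.94-fold, and in no EtOH library. At DDIT3, the region 706 bp upstream, which lies in an intron of MBD6 and 381 bp from the MBD6 start site, was called at 9.52-fold in S100A8 TAM 1 and at 7.20-fold, 9.87-fold, and 7.87-fold in S100A9 TAM 1 to 3. A second DDIT3 region, 1630 bp downstream of the farthest start site and close to those of shorter transcripts, was called in 4 TAM libraries at 6.64-fold to 9.88-fold. It also lies 373 bp from the start site of an overlapping coding gene without a symbol. None of these 3 regions at CEBPG and DDIT3 was called in EtOH.

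**Figure D3:**
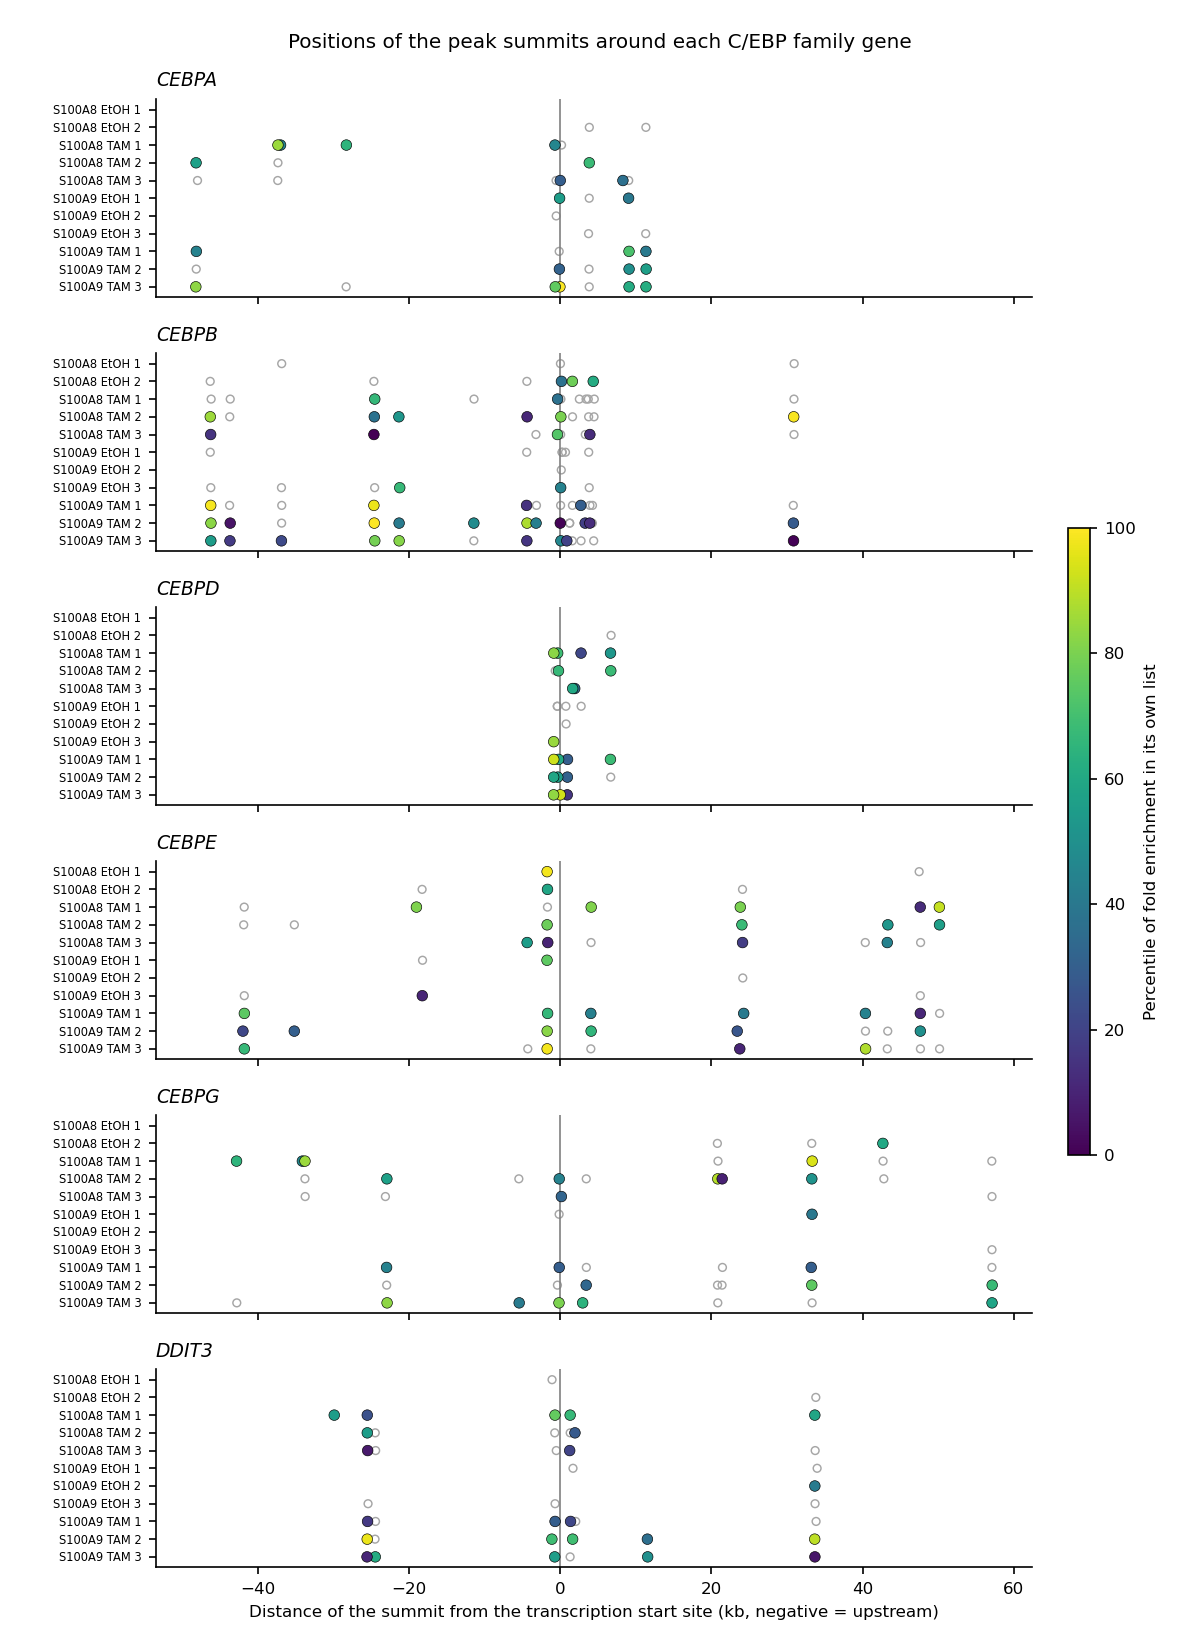
Summits around the 6 genes (x axis, kb from the start site, negative upstream) in the 11 libraries (y axis); filled points are peaks with q ≤ 1e-07 colored by the percentile of their fold enrichment within their own list, and open points are weaker listed peaks in the same regions. Columns of filled points across all 6 TAM libraries stand at −24627 bp of CEBPB, 23824 bp of CEBPE, and −25560 bp of DDIT3, and the CEBPE column near −1746 bp runs through 3 EtOH libraries as well.

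Away from the promoters, 3 regions were called in all 6 TAM libraries and in no EtOH library. Of the 64 regions, 34 were called in at least 2 libraries and 30 in only 1. No EtOH library was called at 52 of them and no TAM library at 4. A weaker EtOH peak was listed at 24 of the 64, so a missing call is not a missing peak. The share of all regions with such a peak was not counted. Among all regions, 45.6% were called in only 1 library, 82.0% in no EtOH library, and, of those in at least 2, 11.2% in every TAM library, compared with 3 of 34 for the family.

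The first of the 3 lies 24627 bp upstream of CEBPB (chr20:48782581-48782925), in an exon of the noncoding LINC01275, 9 bp from the start site of that RNA and 12469 bp from the nearest coding start site, that of PEDS1. Its fold enrichment was 8.74, 7.29, and 4.39 in S100A8 TAM 1 to 3 and 14.7, 20.9, and 9.79 in S100A9 TAM 1 to 3. The highest S100A9 peak stood at the 99.7th percentile of its list, whereas the lowest S100A8 peak stood at the 0.356th. All 3 S100A9 values lay above all 3 S100A8 values, which in 3 against 3 libraries cannot reach an exact permutation p below 0.1. Weaker peaks were listed in S100A8 EtOH 2 (4.67-fold) and S100A9 EtOH 3 (6.09-fold).

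The second lies 23824 bp downstream of the CEBPE start site, 48 bp from a start site of ACIN1, a gene of RNA processing, where the called peaks had 5.62-fold to 9.87-fold enrichment. Its called summits were spread over 1087 bp of the region, which is 1399 bp wide. The distance of 48 bp is that of the S100A8 TAM 1 summit. Weaker peaks were listed in S100A8 EtOH 2 (5.95-fold) and S100A9 EtOH 2 (5.30-fold). The third lies 25560 bp upstream of DDIT3 and 73 bp from the start site of DCTN2, which encodes a dynactin subunit. Here S100A9 TAM 2 had 15.9-fold, and the other 5 TAM libraries had 5.76-fold to 8.04-fold. A weaker peak was listed in S100A9 EtOH 3 (3.22-fold). So the summit that gives the position of each of these 3 regions stood within 100 bp of a start site of another gene. That gene was noncoding at CEBPB and coding at CEBPE and DDIT3. At CEBPE, the summits of other libraries were scattered, so the distance does not describe every library.

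The region 1746 bp upstream of the coding start site of CEBPE (chr14:23589990-23590365) was also called in EtOH, unlike the regions in every TAM library. It was called in 8 libraries, the most of any region of the family. The fold enrichment was 13.3 and 8.62 in S100A8 EtOH, 9.52 and 6.06 in S100A8 TAM 2 and 3, 9.21 in S100A9 EtOH 1, and 9.02, 11.3, and 15.7 in S100A9 TAM. The peak of S100A8 EtOH 1 stood at the 98.3rd percentile of its own list, and the EtOH and TAM libraries overlapped (exact permutation p = 0.880 for the calls, unadjusted). It falls just outside the promoter as defined here, and inside it if the 5′ end of the gene record, which also covers a noncoding transcript, is taken as the start site.

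Other regions called often were mostly intronic or intergenic. At CEBPB, 46276 bp upstream in an intron of PEDS1, peaks of 10.5-fold and 6.39-fold in S100A8 TAM 2 and 3 and of 16.8-fold, 11.4-fold, and 7.83-fold in S100A9 TAM were called, and 3 EtOH libraries held weaker peaks. At 21329 bp upstream, in a noncoding exon, 3 TAM libraries and S100A9 EtOH 3 were called at 7.88-fold to 10.2-fold. The region with 2 matches to the C/EBP letters, 30893 bp downstream, had 16.7-fold in S100A8 TAM 2 (the 99.1st percentile), but 7.57-fold and 4.40-fold in S100A9 TAM 2 and 3. No other library passed the threshold there.

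At CEBPA, 4 regions lay downstream of the start site, of which 2 were called in S100A9 libraries alone and 2 in S100A8 libraries alone. The region 11341 bp downstream of the start site was called in S100A9 TAM 1 to 3 alone, at 7.62-fold, 8.92-fold, and 8.24-fold. Weaker peaks were listed there in S100A8 EtOH 2 (6.84-fold) and S100A9 EtOH 3 (6.78-fold). The region at 9095 bp was called in the same 3 libraries at 9.38-fold, 8.53-fold, and 8.23-fold and in S100A9 EtOH 1 at 7.92-fold, so that 4 S100A9 libraries and 0 S100A8 libraries were called (exact permutation p = 0.0600, adjusted p = 1.00). An S100A8 library, TAM 3, held a weaker peak there of 5.24-fold. The regions at 8285 bp and 3835 bp were each called in 1 library, S100A8 TAM 3 at 7.35-fold and S100A8 TAM 2 at 8.74-fold. At 3835 bp, 4 S100A9 libraries and S100A8 EtOH 2 held weaker peaks, of 4.37-fold to 6.28-fold. The CEBPA region 48247 bp upstream is also the CEBPG region 22928 bp upstream of that gene, and 3 TAM libraries were called at 7.76-fold to 10.3-fold.

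At CEBPG, the region 33339 bp downstream of the start site, in an intron of the peptidase gene PEPD, was called in S100A8 TAM 1 and 2 at 12.8-fold and 7.88-fold, in S100A9 TAM 1 and 2 at 7.20-fold and 10.5-fold, and in S100A9 EtOH 1 at 7.92-fold. The region at 57164 bp, in PEPD as well, was called in S100A9 TAM 2 and 3 at 9.74-fold and 8.05-fold. At CEBPE, 4090 bp downstream of the start site, 3 TAM libraries were called at 7.67-fold to 10.1-fold. At DDIT3, the region 33672 bp downstream of the start site lies 3 bp from that of MARS1, the methionyl-tRNA synthetase gene, and was called in 3 TAM libraries and in S100A9 EtOH 2 at 5.31-fold to 12.8-fold. The region at 11563 bp was called in S100A9 TAM 2 and 3 at 7.88-fold and 7.56-fold.

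**Figure D4:**
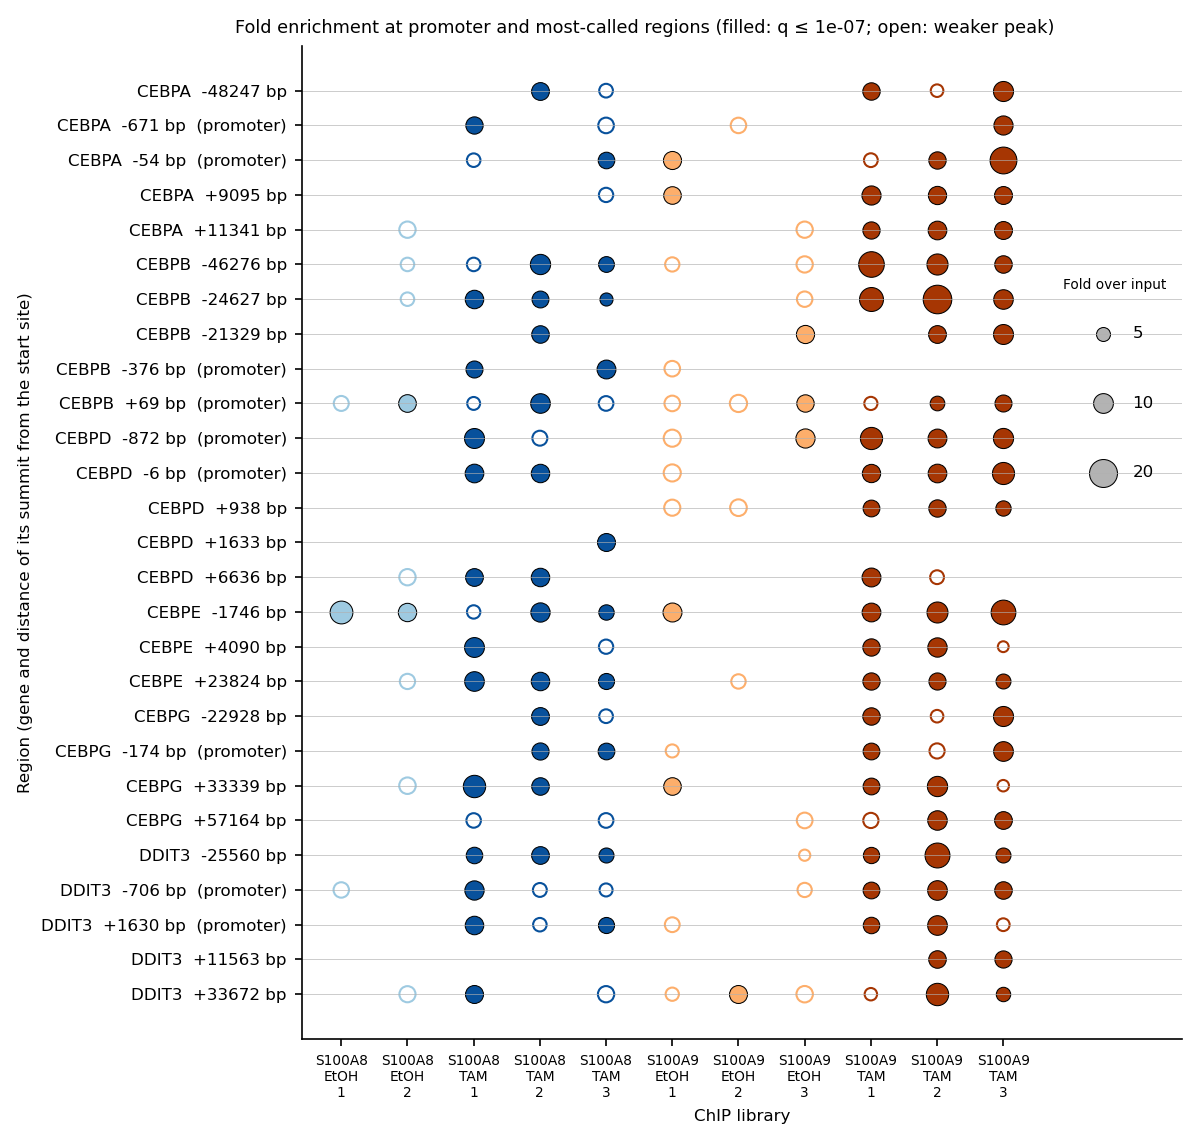
Fold enrichment over input (area of each point) at the promoter regions and the most often called other regions of the 6 genes (rows) in the 11 libraries (columns); filled points have q ≤ 1e-07 and open points are weaker listed peaks. Filled points are mostly in TAM columns, and the CEBPE region 1746 bp upstream has 3 in EtOH, of 13.3-fold, 8.62-fold, and 9.21-fold.

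Each region was also tested on its calls. Of the 34 regions in at least 2 libraries, 5 had an unadjusted p of 0.05 or lower for TAM against EtOH by exact permutation, compared with 14.1% of all 38593 regions tested. These are the 3 regions in every TAM library, the one 46276 bp upstream of CEBPB, and the one 6 bp upstream of CEBPD. No region of the family passed after adjustment, and neither did any other (0%); the smallest adjusted p over all regions was 0.272.

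No difference between S100A9 and S100A8 passed the test at any of the 6 genes. The mean difference between S100A9 and S100A8 was 1.58 peaks at CEBPB, 0.83 at CEBPA and at DDIT3, 0.67 at CEBPD, 0.50 at CEBPE, and 0.08 at CEBPG, and the adjusted p of the exact permutation test was 1.00 for each. Of all genes tested, 0% were called after adjustment and 0.822% had an unadjusted p of 0.05 or lower, compared with 0 of the 6 members. The corresponding unadjusted shares were 0.131% of promoters and 0.0959% of regions, and 0% of either after adjustment, and again no member promoter or region was among them. The S100A9 TAM 3 list held the most peaks of all, 40735.

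CEBPB had the largest difference between the proteins in its response to TAM among the 6. Its mean rose from 1.50 to 4.00 peaks with S100A8 and from 0.667 to 8.00 with S100A9, a difference between these differences of 4.83 that lay at the 98.9th percentile of all genes. It did not pass the exact permutation test of the protein labels (p = 0.160, adjusted p = 1.00). The S100A9 TAM libraries of CEBPB ranged from 4 to 11 peaks and overlapped with the S100A8 TAM libraries, which ranged from 2 to 6. For the other 5 genes the difference was 0.33 to 1.67 peaks. Among all genes 0% were called after adjustment and 2.37% had an unadjusted p of 0.05 or lower, compared with 0 of the 6 members.

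The genes with the most similar counts across the 11 libraries were found by the Euclidean distance between log2(1 + peaks), among genes whose windows do not overlap the member's. CEBPD was matched most closely, by NABP1 at a distance of 0.263, SLC2A10 at 0.415, and BNC2 at 0.585. CEBPA was nearest to METTL3 (0.587), MATK (0.628), and WNT3 (0.668). CEBPE was nearest to HID1 (0.587) and to GAL3ST3 and SF3B2 (0.826 each), which are neighbors with the same counts. CEBPG was nearest to RNF112 (0.643), ATF7-NPFF (0.718), and DTX1 (0.741), and DDIT3 to MKKS (0.641), FAM25A (0.808), and DPCD (0.868). CEBPB had no match as close, with TNFRSF1B at 1.18, PNMA1 at 1.29, and POLD2 at 1.33, and none of these 3 reached its 11 peaks in S100A9 TAM 2.

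Genes that act with the family were counted in the same way, from lists of textbook membership. Of 21 regulators and partners of C/EBP factors, which include the interleukin-6 and STAT3 pathway, Tribbles proteins, and kinases, 17 were called higher in TAM at an adjusted p of 0.05 or lower by exact permutation, with a median difference of 3.33 peaks over the 21. The largest differences were 13.75 peaks at RUNX1, a partner of C/EBPα in blood cells, 13.50 at SOCS3, the feedback inhibitor of STAT3 signaling, and 7.33 at TRIB1, which marks C/EBPα for degradation. Of 20 genes of the integrated stress response, in which DDIT3 is a target of ATF4, 16 were called higher, with a median of 3.54 over the 20 and the largest differences at DDIT4 (10.92), TRIB3 (9.67), and the kinase gene EIF2AK4 (6.75). Of 14 inflammatory and acute-phase genes that could be tested, 9 were called higher, with a median of 3.17 over the 14 and the largest differences at CSF3 (7.75), IL1B (7.0), and CD14 (6.50). All 9 genes named here had an adjusted p of 0.0219 by exact permutation, and no gene of the 3 lists was called lower; the tested genes that were not called also had positive differences. Beside 67.6% of all genes and a median of 2.42, these counts are a description of the lists and no test of them, and as a share of the peak list 0 genes of the 3 lists were called. Windows grow with the length of the gene body and were not adjusted for. The sizes of the differences therefore do not rank the response of these genes.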

How the data were processed

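Flag ChIP-seq peak lists of 11 libraries were used, out of 24 samples in the series; input and RNA polymerase II libraries were not analysed here. The authors used Bowtie2 for alignment to hg19, discarded reads that did not map uniquely, and ran MACS2 on every library separately, with the matching chromatin input as control and no pooling of replicates; versions are not given in the sources used here. In the deposited lists, the fold enrichment is the ratio of the signal at the summit to that input. The −log10 p and −log10 q of each peak are also as deposited by the authors, with q values reaching up to 0.05. For confident peaks, the paper further required a call in at least 2 biological replicates and a minimum of raw reads. Those requirements were not applied here, so peaks of single libraries were counted too. The integer score column written by MACS2 was deposited by the authors too and was not used. Read numbers are not listed, so the depth of the libraries is unknown and counting intervals could not be formed.

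Autosomal (1 to 22) and X-chromosomal peaks of q ≤ 1e-07 were assigned to protein-coding genes of GENCODE 44 lifted to hg19. Positions are given on hg19, and bases were read from the GRCh37 genome. Levels were compared by exact permutation of libraries within each protein (or within each treatment for S100A9 against S100A8), two-sided by doubling the smaller tail, over features with a peak in at least 2 libraries, and adjusted by the Benjamini-Hochberg method. With 200 arrangements, the smallest possible p was 0.0100. The 6 genes and the gene lists were chosen with earlier results of these data known. The regions named by rule were those with a promoter summit and, for each gene, up to 3 others called in the most libraries, with ties broken by mean percentile of fold enrichment. The regions 30893 bp downstream of the CEBPB start site and 8285 bp and 3835 bp downstream of that of CEBPA were named outside this rule. For each list and for each comparison of similar genes, 3 genes were named. Same-numbered EtOH and TAM libraries did not deviate together, with correlations of −0.0156 to 0.00674 over 5 pairs. The tests were checked on simulated counts with known changes larger than the differences at the 6 genes. Power for changes of the observed size was not checked. For the treatment difference between the proteins, the check set no requirement on power. Python 3.11.15, NumPy 2.4.6, pandas 2.3.3, and Matplotlib 3.10.9 were used.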

Additional observations from a re-analysis of the deposited data

How the results depend on the processing

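The 6 genes were recounted with every deposited peak, at q ≤ 1e-10, with equal numbers of top peaks, with other windows and merging rules, without the filter on low values, with a replicate block, and without each library. For TAM against EtOH, the number of members called fell from 6 to 1 at q ≤ 1e-10 (6885 instead of 12246 of all genes), to 2 with 10 kb flanks (3646 of all genes), and to 0 with equal numbers of top peaks (0 of all genes, with 150 at an unadjusted p of 0.05 or lower). With the replicate block 0 members and 0 genes were called, because its 32 arrangements cannot give an exact permutation p below 0.0625; the numbers showed no pairing, and all 6 differences remained positive, from 3.00 to 4.92 peaks. Leaving out 1 library at a time gave 4 to 6 members and 8348 to 9549 genes, with fewer arrangements and thus a larger smallest possible p. CEBPB kept its call only without S100A8 EtOH 2 or S100A8 TAM 1, and CEBPG only without S100A8 EtOH 2 or S100A8 TAM 3. CEBPE turned to −0.25 peaks with equal numbers of top peaks.

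Differences that were not called changed sign as follows. As a share of the list, CEBPA was −0.13 per 10000 with every peak and −0.14 with 10 kb flanks, CEBPD −0.07 with every peak and −0.21 at q ≤ 1e-10, CEBPE −0.14 at q ≤ 1e-10, −1.35 with equal numbers, −0.99 with 10 kb flanks, and −0.02 with the replicate block, and CEBPB 1.27 with 100 kb flanks. Without single libraries the shares ranged from −0.26 to 1.13 for CEBPA, −1.75 to 1.51 for CEBPB, −0.33 to 0.37 for CEBPE, −0.29 to 0.80 for CEBPG, and −0.02 to 1.32 for DDIT3. Between the proteins, CEBPE was −0.25 peaks at q ≤ 1e-10 and −0.17 with 10 kb flanks, and CEBPG −0.50 to 0.50 without single libraries. The treatment difference between the proteins was −0.33 for CEBPD at q ≤ 1e-10 and for CEBPA with 100 kb flanks, and ranged from −0.33 to 1.00 for CEBPA and from −0.67 to 1.33 for CEBPG without single libraries. No alternative called any member, promoter, or region in the comparisons other than TAM against EtOH in peaks per gene. The causes were not tested.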
